A study of Mus musculus with 2 samples.

Results

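The genes of the type 17 cytokine axis *Il17a*, *Il17f*, *Il22*, *Il23r*, *Ccr6*, *Il17re*, and *Il17ra* were taken as a list from the genes measured by scRNA sequencing in nephritic mouse kidney. All 7 were present among the 20299 genes, and their unique molecular identifiers (UMIs, counts of captured transcripts) were summed over the cells of each of the authors' 16 clusters in each library. The 2 libraries came from C57BL/6 mice aged 8 weeks with nephrotoxic serum nephritis (NTN), 1 from WT mice and 1 from *Vsir-/-* mice, which lack the checkpoint protein VISTA. In both groups, 200 μg of sheep IgG in Freund's complete adjuvant was followed after 4 days by sheep serum against the glomerulus (2 μl per g in the labels, another dose in the paper). Kidneys were digested with liberase (0.2 mg/ml, 30 minutes, 37°C) and processed with the 10x 3′ chemistry (version 3.1). Per the labels, only the WT library was sorted for CD45, the pan-leukocyte marker, and whole kidney was used for the *Vsir-/-* library, whereas the paper describes a CD45+ sort. The number of mice per library is not given in the sources used here. Each genotype thus has 1 library and no replicate, and every interval below covers counting error only, not the variation between mice. The intervals of UMI counts also leave out the spread between cells.

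IL-17A and IL-17F are secreted cytokines that act on epithelial, stromal, and myeloid cells through a receptor built around the shared IL-17RA chain. They induce chemokines and antimicrobial proteins, and neutrophils follow. IL-22 acts on epithelium through a different receptor. Both Th17 cells, a CD4+ T cell subset, and a preformed subset of gamma delta T cells make them when IL-23 is sensed through IL-23R, and both subsets carry the chemokine receptor CCR6. IL-17RE pairs with IL-17RA as the receptor of IL-17C, a cytokine of epithelial cells. *Il17c* itself was not analysed here.

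*Il17a* and *Il17f* are direct neighbors on chromosome 1, and their levels ran closest together with those of *Il23r* over the groups of cells described below. The promoters of these 3 genes are therefore shown, from 250 bases before to 50 bases after the start, 5′ to 3′ on the strand of the gene (RefSeq, GRCm38.p6). Capitals mark the nuclear receptor half-site AGGTCA or its reverse complement TGACCT, and TGANTCA, a loose AP-1-like motif that allows any base at N. Among the 32851 promoters of this length in the table, 16.3% held the nuclear receptor half-site on either strand, 7.81% held TGANTCA, and 8.30% held the STAT motif TTCNNNGAA.
Il17a, chr1:20730655-20730954, plus strand: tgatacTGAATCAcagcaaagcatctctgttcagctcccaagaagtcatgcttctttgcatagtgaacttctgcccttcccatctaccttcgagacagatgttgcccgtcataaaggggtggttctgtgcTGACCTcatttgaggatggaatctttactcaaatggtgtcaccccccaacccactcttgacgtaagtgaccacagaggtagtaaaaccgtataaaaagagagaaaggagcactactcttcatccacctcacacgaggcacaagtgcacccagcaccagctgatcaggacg
Il17f, chr1:20784221-20784520, minus strand: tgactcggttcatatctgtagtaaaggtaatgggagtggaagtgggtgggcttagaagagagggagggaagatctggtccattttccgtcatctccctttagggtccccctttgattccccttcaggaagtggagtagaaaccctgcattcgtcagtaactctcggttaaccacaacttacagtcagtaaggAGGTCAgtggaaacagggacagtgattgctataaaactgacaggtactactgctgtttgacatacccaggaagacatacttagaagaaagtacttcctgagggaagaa
Il23r, chr6:67491806-67492105, minus strand: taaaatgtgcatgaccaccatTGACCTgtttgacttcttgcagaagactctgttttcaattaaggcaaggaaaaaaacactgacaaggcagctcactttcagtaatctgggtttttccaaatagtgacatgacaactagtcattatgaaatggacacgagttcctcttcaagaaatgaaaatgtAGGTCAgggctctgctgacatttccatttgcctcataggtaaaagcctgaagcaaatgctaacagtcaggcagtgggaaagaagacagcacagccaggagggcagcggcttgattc

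The *Il17a* promoter held TGACCT from -120 to -115 and TGAATCA from -244 to -238, counted from the start. The *Il17f* promoter held AGGTCA from -58 to -53, and the *Il23r* promoter held TGACCT from -229 to -224 and AGGTCA from -66 to -61. No other match to these motifs was found in the 3 sequences. Of the members, 6 of 7 had a promoter in the table, and *Il17ra* had none. One of the promoters of *Ccr6* (chr17:8235793-8236092, plus strand) held TGACCT from -44 to -39 and the STAT motif at -157 and at -120. The other *Ccr6* promoter and those of *Il22* and *Il17re* held none of these letters. The matches describe sequence only and are not evidence of binding.

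The WT library held 5470 cells (32799550 UMIs) and the *Vsir-/-* library 1844 cells (18601189 UMIs), and 5 barcodes occurred in both. *Vsir*, the targeted gene, had 63 UMIs in WT and 1 in *Vsir-/-* gamma delta T cells, and 384 and 2 UMIs in the EM-like CD4+ cluster. The gamma delta T cluster held 46 WT cells (280658 UMIs, median of 5377.5 per cell) and 28 *Vsir-/-* cells (177249 UMIs, median of 6263). All of its cells held a transcript of *Trdc* or of a gamma chain constant gene. Such a transcript was not particular to it, as 40.3% of WT and 28.7% of *Vsir-/-* cells of the EM-like CD4+ cluster also held one. The makeup of the gamma delta T cluster differed between the libraries. *Trdc* was detected in 30 of its 46 WT and 26 of its 28 *Vsir-/-* cells and *Trac*, the alpha chain, in 21 and 7 cells. For the EM-like CD4+ cluster there were 489 WT cells (2802763 UMIs) and 244 *Vsir-/-* cells (1577359 UMIs), of which 484 and 243 held a T cell transcript. The name of the EM-like CD4+ cluster fits only part of its cells: *Cd4* was detected in 20.9% of WT and 32.4% of *Vsir-/-* cells, *Cd8a* or *Cd8b1* in 21.1% and 17.6%, and at least 1 of 4 NK cell markers in 57.9% and 26.6%.

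Transcripts of kidney tubule cells differed between the libraries in every cluster that both contained. Summed over 12 tubule markers, the gamma delta T cluster had 3.56 CPM (UMIs per 1000000 UMIs of the same cells) in WT mice and 1371 CPM in *Vsir-/-* mice, and the EM-like CD4+ cluster had 2.14 and 2438 CPM. In WT cells 11 of the 12 markers were at 0 in either cluster, and in *Vsir-/-* cells all 12 were detected. The part of this difference in the values below was not tested.

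*Il17a* was found mainly in gamma delta T cells and the EM-like CD4+ cluster. Of all *Il17a* UMIs, gamma delta T cells held 57.7% (interval 50.8–64.5%) in the WT library, although they were 0.841% of its cells. The EM-like CD4+ cluster held 38.5% (interval 31.9–45.4%). In the *Vsir-/-* library the order was the opposite, with 35.7% (interval 32.2–39.3%) in gamma delta T cells and 55.6% (interval 51.9–59.3%) in the EM-like CD4+ cluster. Both clusters together held 96.2% of 213 WT UMIs and 91.3% of 726 *Vsir-/-* UMIs. A single WT cell of the EM-like CD4+ cluster held 66 UMIs, and without it the WT shares were further apart, 83.7% in gamma delta T cells and 10.9% in the EM-like CD4+ cluster. For *Il17f*, both clusters together held 83.3% of 36 WT UMIs and 78.9% of 57 *Vsir-/-* UMIs, and for *Il22* they held 64.7% of 17 and 55.6% of 45 UMIs. ILC2 held 23.5% of the WT *Il22* UMIs.

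**Figure D1:**
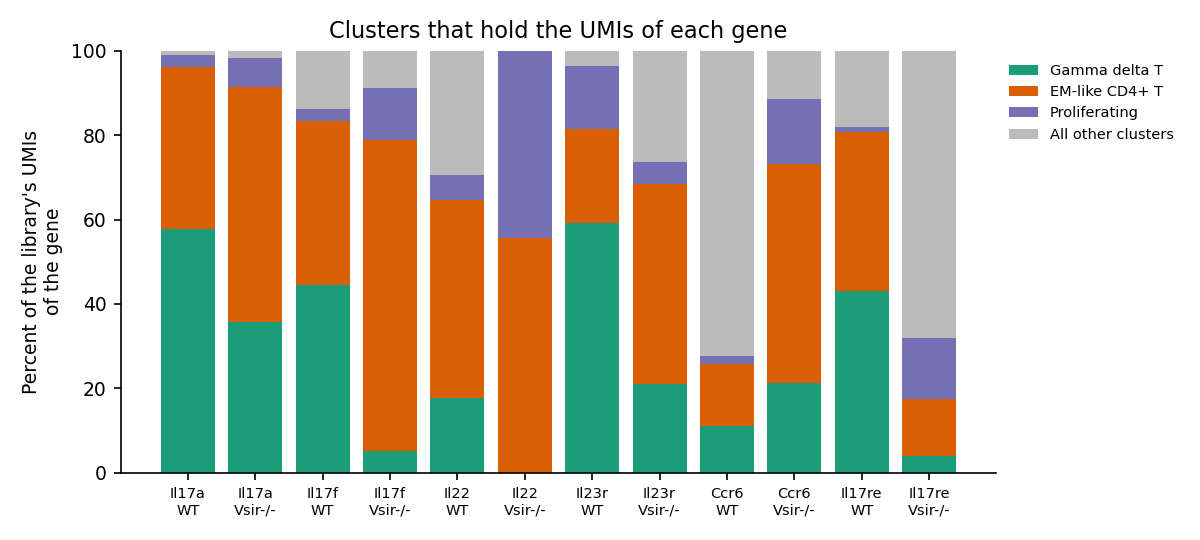
Percent of each library's UMIs of a gene (vertical axis) that lay in gamma delta T cells, the EM-like CD4+ cluster, the proliferating cluster, and all other clusters, for 6 members in the WT and *Vsir-/-* libraries. *Il17a* and *Il17f* lay mostly in the first 2 clusters, whereas 52.0% of WT *Ccr6* UMIs were in B cells and 59.8% of *Vsir-/-* *Il17re* UMIs lay in the cluster named non–EM-like CD4+, mostly in its cells without a T cell transcript, both within the grey part.

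Among the ligands, *Il17a* in gamma delta T cells was 3.33-fold higher in the *Vsir-/-* library. WT cells held 123 UMIs of it, or 438 CPM (interval 364–523). *Vsir-/-* cells held 259 UMIs, or 1461 CPM (interval 1289–1650), which gave a log2 ratio of 1.74 (interval 1.42–2.06). The intervals of the levels did not overlap, but they treat UMIs as independent and leave out the spread between cells. The 3 highest cells held 65.9% of the WT and 45.6% of the *Vsir-/-* UMIs. Positive cells made up 26.1% of the WT cluster (12 of 46, interval 14.3–41.1%) and 75.0% of the *Vsir-/-* cluster (21 of 28, interval 55.1–89.3%). With every cell thinned to 1000 UMIs, the shares were 17.4% and 42.9%. In B cells, which should lack the gene, no UMI was found in 969 WT cells (median of 3426 UMIs per cell), which allows a share of up to 0.310%, or in 88 *Vsir-/-* cells (median of 3596.5), which allows up to 3.41%. The *Il17a*-positive gamma delta T cells held 1 to 32 UMIs in WT mice (median of 4.5) and 1 to 47 in *Vsir-/-* mice (median of 7), so the ranges per positive cell overlapped widely. Restricted to cells with *Trdc*, a limit chosen after the values were seen, 8 of 30 WT cells and 20 of 26 *Vsir-/-* cells were positive and the log2 ratio was 1.42.

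**Figure D2:**
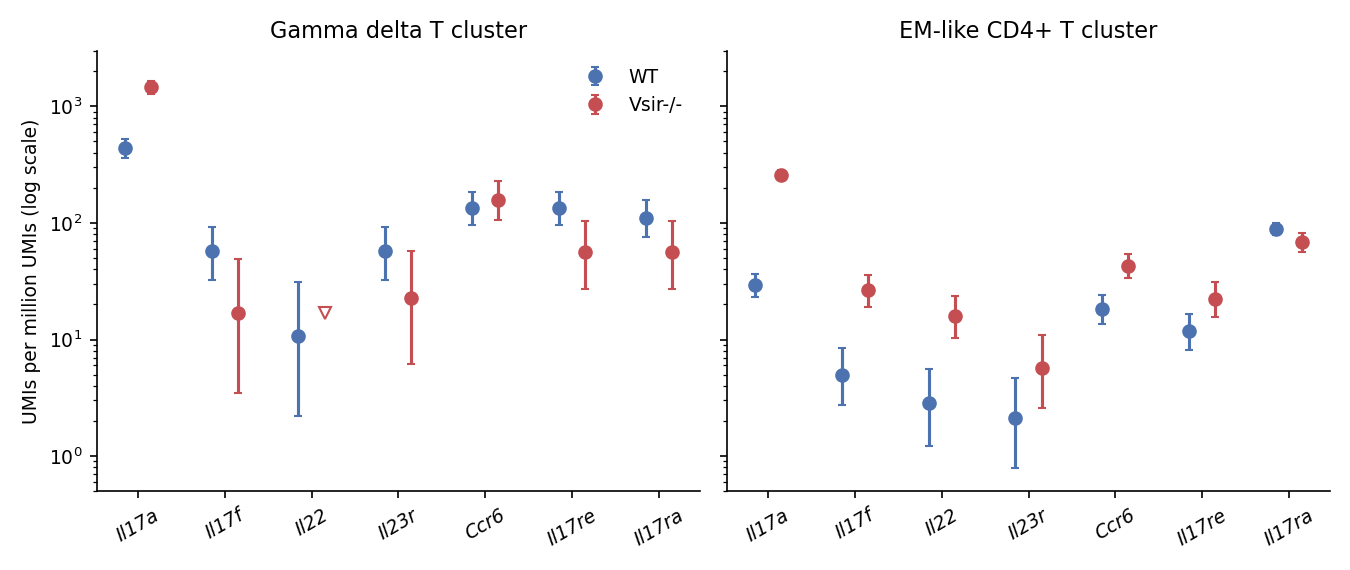
Level of each member in CPM (vertical axis, log scale) in the gamma delta T and the EM-like CD4+ cluster of the WT (blue) and *Vsir-/-* (red) library. Points are summed counts, bars are exact 95% Poisson intervals, and the open triangle is the level that 3 UMIs would have where none was found (*Il22*, *Vsir-/-* gamma delta T cells). Levels should be compared within a gene, and *Il17a* was higher in the *Vsir-/-* library in both clusters.

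In the EM-like CD4+ cluster, *Il17a* was carried by few cells in either library. In the WT library 4 of 489 cells held 66, 9, 6, and 1 UMIs. In the *Vsir-/-* library 22 of 244 cells held 1 to 96 UMIs each (median of 11.5), and the 3 highest held 43.8% of the 404 UMIs. The log2 ratio of 3.13 became 5.09 without the highest cell of each library, from 16 and 308 UMIs. Of the *Vsir-/-* cells with *Il17a*, all 22 held *Trac*, 15 held *Cd4*, none held *Cd8a* or *Cd8b1*, 1 held *Trdc*, and 16 held *Ccr6*. Over the whole *Vsir-/-* cluster of 244 cells, *Trac* was detected in 213, *Cd4* in 79, *Cd8a* or *Cd8b1* in 43, *Trdc* in 7, and *Ccr6* in 39. Among cells with *Cd4* and without *Cd8a* or *Cd8b1*, a limit chosen after the values were seen, *Il17a* was found in 2 of 92 WT and 15 of 76 *Vsir-/-* cells, with 75 and 314 UMIs and a log2 ratio of 2.26. *Ifng*, the hallmark cytokine of type 1 cells, was detected in 143 of the 244 *Vsir-/-* cells and in 4 of the 22 with *Il17a*.

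**Figure D3:**
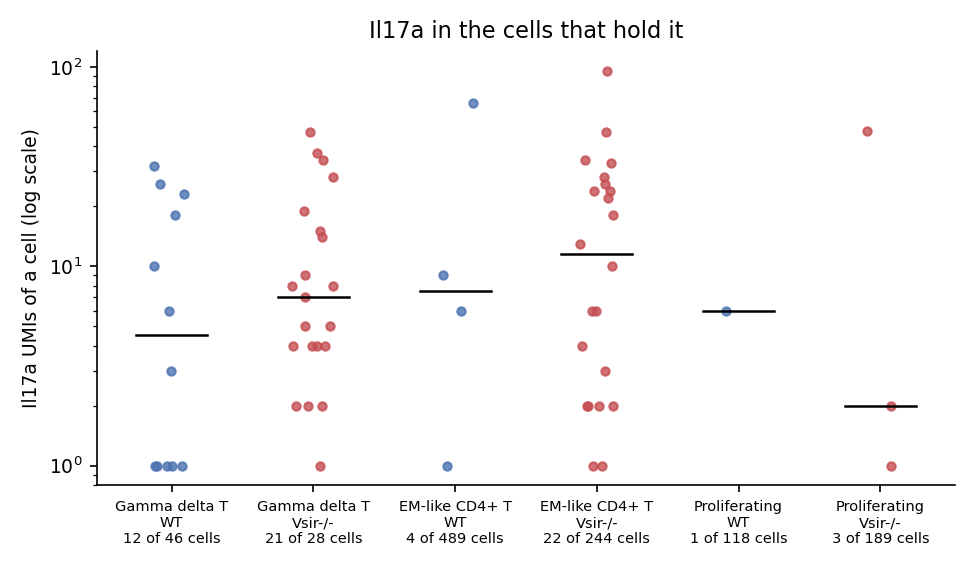
*Il17a* UMIs (vertical axis, log scale) of each cell with at least 1 UMI in the gamma delta T, EM-like CD4+, and proliferating clusters of the WT (blue) and *Vsir-/-* (red) library. Each point is a cell and black lines are medians over positive cells. Positive cells were 12 of 46 and 21 of 28 in gamma delta T cells and 4 of 489 and 22 of 244 in the EM-like CD4+ cluster, and their UMIs per cell overlapped between the libraries.

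Outside these clusters, *Il17a* UMIs came from few cells. The proliferating cluster held 6 UMIs in 1 WT cell (2.98 CPM) and 51 UMIs in 3 *Vsir-/-* cells (11.5 CPM), of which 1 cell held 48. The cluster named pDC held 8 UMIs in 1 *Vsir-/-* cell of 86 and none in 21 WT cells. By level, the clusters followed the order gamma delta T, EM-like CD4+, and proliferating in both libraries, and the intervals of neighbors in this order did not overlap. In WT mice the gap between the EM-like CD4+ and the proliferating cluster rests largely on 1 cell, which held 66 of the 82 UMIs of the former. Intervals without that cell were not computed. In *Vsir-/-* mice the proliferating cluster as a whole (interval 8.54–15.1 CPM) could not be separated from the pDC cluster (interval 2.92–13.3 CPM). However, 123 of its 189 *Vsir-/-* cells had no T cell transcript, against 4 of 118 WT cells, and these 123 held no *Il17a*. All 51 UMIs were in the 66 *Vsir-/-* cells with a T cell transcript (35.4 CPM, interval 26.3–46.5). Tubule markers in the proliferating cluster summed to 0.497 CPM in WT and 4961 CPM in *Vsir-/-* mice. In each of the remaining clusters at most 1 UMI was found per library.

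*Il17f*, which encodes the other cytokine of the pair, was not higher in *Vsir-/-* gamma delta T cells. In the WT library, 4 cells held 16 UMIs of it, a level of 57.0 CPM (interval 32.6–92.6). In the *Vsir-/-* library, 2 cells held 3 UMIs, a level of 16.9 CPM (interval 3.49–49.5). The log2 ratio of -1.75 had an interval from -4.17 to 0.05. A single WT cell held 11 of the 16 UMIs. Within the EM-like CD4+ cluster, the 5 positive WT cells held 9, 2, 1, 1, and 1 UMIs, and the 7 positive *Vsir-/-* cells held 14, 10, 7, 6, 2, 2, and 1. The log2 ratio there was 2.41 (interval 1.51–3.40). Among cells with *Cd4* and without *Cd8a* or *Cd8b1* it was 0.86, from 12 and 19 UMIs. Of the 7 *Vsir-/-* cells, 6 also held *Il17a*, as did 2 of the 5 WT cells.

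*Il22* was detected in 9 WT cells and 6 *Vsir-/-* cells in all. Of these, 4 WT cells of the EM-like CD4+ cluster held 5, 1, 1, and 1 UMIs, and 5 *Vsir-/-* cells of that cluster held 17, 4, 2, 1, and 1, a log2 ratio of 2.47 (interval 1.28–3.83). All 9 of the cells held *Cd4*. A proliferating *Vsir-/-* cell held 20 UMIs of *Il22*, which was 44.4% of the UMIs of that library. Gamma delta T cells held 3 UMIs in the WT library and 0 in the other, too few for a ratio. In ILC2, the group 2 innate lymphoid cells, 4 UMIs were found in a single WT cell of 79 and none in 19 *Vsir-/-* cells, where 3 UMIs would exceed the WT level. *Il22* lies next to a near-identical copy, *Iltifb*, so reads could be split between them and the levels of *Il22* are uncertain. *Iltifb*, examined after the values were seen, had 18 UMIs in 8 *Vsir-/-* cells, of which 4 also held *Il22*, and 0 UMIs in the WT library.

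At least 1 of the 3 ligand genes was found in 15 of 46 WT (32.6%) and 22 of 28 *Vsir-/-* (78.6%) gamma delta T cells and in 10 of 489 WT (2.04%) and 25 of 244 *Vsir-/-* (10.2%) cells of the EM-like CD4+ cluster. Cells with at least 2 of the 3 numbered 5 in the WT library and 13 in the *Vsir-/-* library, of which 9 were in the EM-like CD4+ cluster. A cell with all 3 was found once in each library, in the EM-like CD4+ cluster of WT mice and in the proliferating cluster of *Vsir-/-* mice.

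*Il23r*, the receptor chain through which IL-23 maintains type 17 cells, was sparse. Among gamma delta T cells, 11 WT cells held 16 UMIs (interval of the level 32.6–92.6 CPM) and 4 *Vsir-/-* cells held 1 UMI each (interval 6.15–57.8 CPM). The log2 ratio of -1.34 (interval -3.38 to 0.30) could not be told from 0 at this depth. For the EM-like CD4+ cluster, 6 WT cells and 8 *Vsir-/-* cells were positive (6 and 9 UMIs), with a log2 ratio of 1.41 (interval -0.24 to 3.19). All 4 *Vsir-/-* gamma delta T cells with *Il23r* also held *Il17a*, as did 4 of the 11 WT cells. Over the whole gamma delta T cluster, 21 of 28 *Vsir-/-* and 12 of 46 WT cells held *Il17a*, so these few cells do not show a link.

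*Ccr6* had no clear direction in gamma delta T cells and was higher in the *Vsir-/-* library in the EM-like CD4+ cluster. Of the gamma delta T cells, 26 WT cells held 38 UMIs (135 CPM) and 13 *Vsir-/-* cells held 28 UMIs (158 CPM). The log2 ratio was 0.22 (interval -0.54 to 0.96). It turned to -0.10 without the highest cell of each library and to -1.28 when cells were thinned to 1000 UMIs (12 and 3 UMIs). Of the EM-like CD4+ cluster, 28 WT cells held 51 UMIs, a level of 18.2 CPM (interval 13.5–23.9). There, 39 *Vsir-/-* cells held 68 UMIs, a level of 43.1 CPM (interval 33.5–54.7), and the log2 ratio was 1.24 (interval 0.70–1.80). Among cells with *Cd4* and without *Cd8a* or *Cd8b1*, the log2 ratio was 0.61, from 33 and 44 UMIs.

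B cells held the largest part of WT *Ccr6*, with 179 of 344 UMIs in 144 of 969 cells (51.4 CPM, interval 44.1–59.5). Only 10 UMIs were found in *Vsir-/-* B cells, in 7 of 88 cells (19.1 CPM, interval 9.14–35.1), and the log2 ratio was -1.43 (interval -2.52 to -0.52). Tubule markers in the B cell cluster summed to 11.8 CPM in WT and 4468 CPM in *Vsir-/-* mice. Cells under 1000 UMIs were 22 of 969 and 16 of 88 there. The part of these differences in the *Ccr6* ratio was not tested. In the macrophage clusters, *Ccr6* had 22 UMIs in M2-like R2, 20 in other R2, and 9 in R1 WT cells, and 0 in each cluster of the *Vsir-/-* library. With 3 counts in place of each 0, these levels were 2.80-fold, 4.02-fold, and 6.91-fold higher in WT mice, which leaves out the counting error of the WT counts. With that error, the intervals of the log2 ratio reached up to -1.06, -1.57, and -2.19. B cell markers moved in the same direction in these clusters. The 3 markers *Cd79a*, *Cd79b*, and *Ms4a1* summed to 301, 1125, and 1075 CPM in WT and to 11.3, 7.76, and 56.2 CPM in *Vsir-/-* M2-like R2, other R2, and R1 macrophages. The part of B cell transcripts in macrophage *Ccr6* was not tested. No *Ccr6* UMI was found in the 895 WT non–EM-like CD4+ cells or in the 197 EM-like and 659 non–EM-like WT CD8+ cells. By level, gamma delta T cells came first in both libraries, ahead of B cells in WT mice (intervals apart) and ahead of the EM-like CD4+ cluster in *Vsir-/-* mice (intervals apart).

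**Figure D4:**
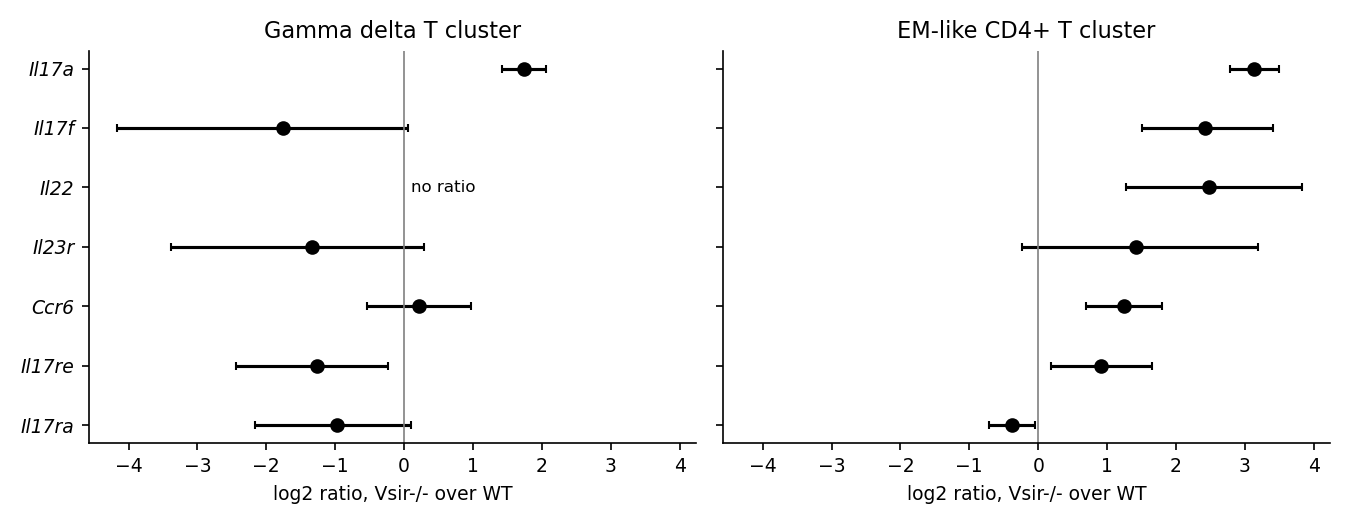
Log2 ratio of the level in the *Vsir-/-* library over that in the WT library (horizontal axis) for each member in the gamma delta T and the EM-like CD4+ cluster, with exact 95% intervals for counting error. *Il17a* lay above 0 in both clusters, at 1.74 and 3.13, and *Il17re* lay at -1.26 and 0.91. No ratio is shown for *Il22* in gamma delta T cells, where both counts were 3 or fewer.

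*Il17re* differed in opposite directions in the 2 clusters. WT gamma delta T cells held 38 UMIs in 22 of 46 cells, a level of 135 CPM (interval 95.8–186). *Vsir-/-* gamma delta T cells held 10 UMIs in 6 of 28 cells, a level of 56.4 CPM (interval 27.1–104), so the log2 ratio was -1.26 (interval -2.43 to -0.23). For the EM-like CD4+ cluster the counts were 33 UMIs in 19 WT cells (11.8 CPM) and 35 UMIs in 30 *Vsir-/-* cells (22.2 CPM), and the log2 ratio was 0.91 (interval 0.19–1.65). Of the 22 *Vsir-/-* cells with *Il17a* in that cluster, 15 held *Il17re*, against 30 of all 244 cells.

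Most *Vsir-/-* *Il17re* UMIs lay elsewhere. The non–EM-like CD4+ cluster held 153 of 256 UMIs (33.3 CPM), against 1 of 88 in WT mice. Of these 153 UMIs, 129 were in the 233 *Vsir-/-* cells of that cluster that had no T cell transcript. In the WT library all 895 cells of the cluster had one. Tubule markers summed to 0.224 CPM in WT and to 9978 CPM in *Vsir-/-* cells of the cluster. Among the 233 cells, the 58 with *Il17re* had 1366 CPM of *Aqp2*, the water channel of the collecting duct (interval 1298–1438), and the 175 without it had 204 CPM (interval 186–223). For *Lrp2*, the endocytic receptor megalin of the proximal tubule, the order was the opposite, with 64.8 CPM (interval 50.5–81.8) in cells with *Il17re* and 581 CPM (interval 550–613) in cells without it. The proximal transporter gene *Slc34a1* had 255 and 1510 CPM, and *Umod* of the thick ascending limb had 525 and 507 CPM. *Umod* was also detected in 89.3% of *Vsir-/-* gamma delta T cells and 86.5% of *Vsir-/-* EM-like CD4+ cells, so its level says little about the segment. *Lcn2*, an antimicrobial protein that IL-17 induces in epithelium, had 341 CPM (interval 307–378) in cells with *Il17re* and 145 CPM (interval 130–162) without it. Cells with *Il17re* were deeper (median of 12738.5 UMIs against 8904). After thinning, *Aqp2* was found in 22.4% of 58 and 6.02% of 166 cells, and *Lrp2* in 6.90% and 28.9%. *Lcn2* was then found in 8.62% (5 cells) and 5.42% (9 cells), a small difference in few cells.

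*Il17ra*, the shared receptor chain, was found in every cluster of the WT library. Its highest WT levels were in other R2 macrophages (313 CPM, interval 283–345) and neutrophils (268 CPM, interval 248–290), whose intervals overlapped, followed by M2-like R2 macrophages (213 CPM, interval 200–227). In *Vsir-/-* mice, other R2 macrophages came first (263 CPM, interval 228–301), ahead of neutrophils (144 CPM, interval 119–173) and M2-like R2 macrophages (140 CPM, interval 122–159). Among clusters of at least 20 cells, R1 macrophages were lowest in both libraries, with 46 UMIs in 116 WT cells and 32 UMIs in 237 *Vsir-/-* cells, but not beyond the interval of the next lowest cluster.

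*Il17ra* was lower in the *Vsir-/-* library in all 13 clusters with at least 20 cells in each library and at least 20 *Il17ra* UMIs. Of the 3039 genes with at least 20 UMIs in each of these clusters, 188 (6.19%) were lower in all 13, and *Il17ra* was thus 1 of many. The 13 comparisons share the same 2 libraries. The log2 ratios ranged from -0.25 (interval -0.50 to -0.01) in other R2 macrophages to -2.78 (interval -3.09 to -2.49) in the non–EM-like CD4+ cluster. In that cluster the 116 *Vsir-/-* cells with a T cell transcript had 46.8 CPM, the 233 without one had 14.5 CPM, and the WT cells had 159 CPM. The 116 cells also held tubule transcripts, with 755 CPM of *Aqp2* and 434 CPM of *Slc34a1*. The 233 cells had 576 and 1108 CPM, and the WT cells had 0 UMIs of either gene. The part of tubule transcripts in this difference was not tested. For gamma delta T cells there were 31 WT and 10 *Vsir-/-* UMIs (log2 ratio -0.97, interval -2.16 to 0.10). For the EM-like CD4+ cluster there were 249 and 108 UMIs (log2 ratio -0.38, interval -0.72 to -0.04), and this direction turned when cells were thinned to 1000 UMIs (0.48, from 37 and 26 UMIs). Among cells with *Cd4* and without *Cd8a* or *Cd8b1* the log2 ratio was -1.12, from 72 and 29 UMIs.

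**Figure D5:**
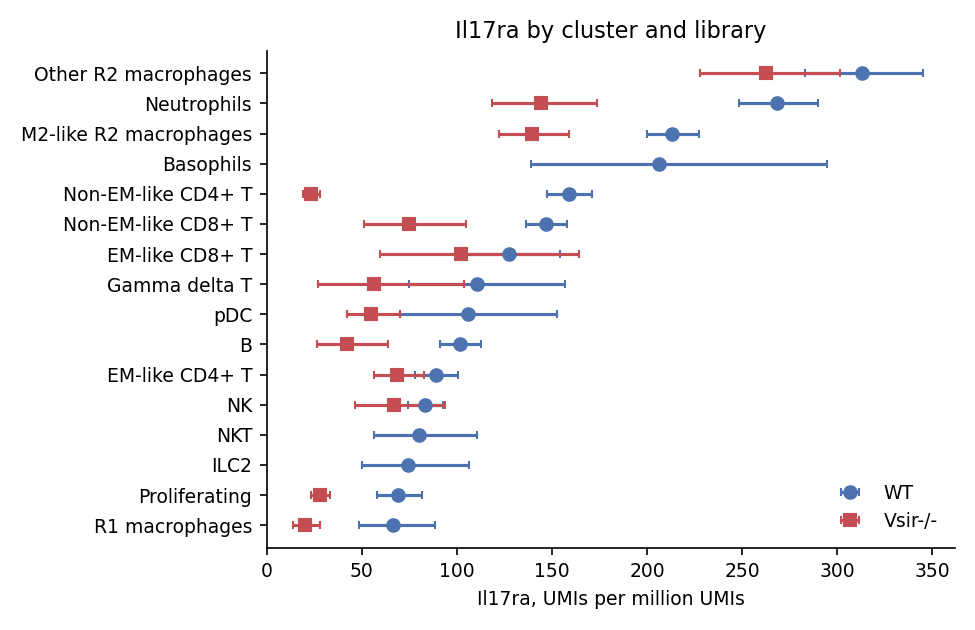
*Il17ra* in CPM (horizontal axis) in each cluster of the WT (blue circles) and *Vsir-/-* (red squares) library with at least 20 cells, ordered by the WT level. Bars are exact 95% Poisson intervals. Other R2 macrophages were highest in both libraries, and the *Vsir-/-* level was below the WT level in each of the 13 clusters shown for both libraries.

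The members were next counted beside all genes. In gamma delta T cells, 5 of the 7 members had at least 20 UMIs. Of these, 1 was at least 2-fold higher in *Vsir-/-* mice (*Il17a*), as were 5.98% of 3379 genes, and 2 were at least 2-fold lower (*Il23r* and *Il17re*), as were 6.6% of the genes. *Il23r* rests on 16 and 4 UMIs and was not 2-fold lower with a mitochondrial share of at most 5% (log2 ratio -0.38, 8 and 4 UMIs) or among cells with *Trdc* (-0.85, 7 and 4 UMIs). In the EM-like CD4+ cluster, 6 members had at least 20 UMIs. Of these, 4 were at least 2-fold higher (*Il17a*, *Il17f*, *Il22*, and *Ccr6*), as were 10.4% of 9751 genes, and 0 were at least 2-fold lower, as were 5.41%. The filter sums the UMIs of both libraries, for the members as for all genes. *Il17f* (14 WT and 42 *Vsir-/-* UMIs) and *Il22* passed it only through the *Vsir-/-* library, where they were higher. The count of 4 is therefore not read as a result about the members. Among cells with *Cd4* and without *Cd8a* or *Cd8b1*, *Il17f* (log2 ratio 0.86) and *Ccr6* (0.61) were not 2-fold higher, whereas *Il17a* (2.26) and *Il22* (1.84) were. *Il17a* rests there on 75 and 314 UMIs, with 66 of the former in 1 cell. *Il22* rests on 8 and 25 UMIs, with 17 of the latter in 1 cell. The median log2 ratio of all genes was -0.00 in gamma delta T cells and 0.00 in the EM-like CD4+ cluster.

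Other genes of the pathway were examined in the same way, as lists of 86 genes, of which 78 were analysed here. The shares over all genes apply to every list below: 5.98% higher and 6.6% lower in gamma delta T cells, 10.4% and 5.41% in the EM-like CD4+ cluster. The lists are short, and their counts past 2-fold are not read as a result about a list. Of 9 regulators, 7 passed the count filter in gamma delta T cells, and 3 of these were at least 2-fold higher and 0 lower. *Hif1a*, which supports glycolysis and Th17 differentiation, had 18 and 40 UMIs (log2 ratio 1.82, interval 0.98–2.71). *Nfkbiz*, which encodes a coactivator of IL-17 target genes, had 12 and 17 UMIs (1.17, interval 0.01–2.36), and *Batf*, an AP-1 family factor, had 10 and 15 (1.25, interval -0.00 to 2.56). The EM-like CD4+ cluster had 2 of 9 regulators at least 2-fold higher and 0 lower, namely *Nfkbiz* with 172 and 207 UMIs (1.10, interval 0.80–1.40) and *Irf4* with 19 and 27 UMIs (1.34, interval 0.44–2.26).

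Among genes of the gamma delta 17 subset, 14 passed the filter in gamma delta T cells, of which 2 were at least 2-fold higher and 0 lower, with a list median of 0.26. *Sox13*, a factor of this lineage, had 14 UMIs in 11 WT cells and 24 in 16 *Vsir-/-* cells (log2 ratio 1.44, interval 0.43–2.50). *Trdv4*, a variable segment of the delta chain, had 16 and 37 UMIs (1.87, interval 0.99–2.82). In the other direction and short of 2-fold, *5830411N06Rik* had 110 UMIs in 26 WT cells and 39 in 10 *Vsir-/-* cells (-0.83, interval -1.40 to -0.29). In *Vsir-/-* gamma delta T cells with *Il17a*, 12 of 21 held *Sox13* and 20 held *Maf*, whereas in WT mice 3 and 11 of 12 did. These shares were close to those of the whole cluster. There, *Sox13* was found in 16 of 28 *Vsir-/-* and 11 of 46 WT cells, and *Maf* in 26 and 41. Of 11 genes of this list in the EM-like CD4+ cluster, 3 were at least 2-fold higher, *Tmem176a* (292 and 389 UMIs), *5830411N06Rik* (12 and 22), and *Kcnk1* (4 and 17), and *Trdv4* was lower (26 and 2 UMIs). *Trdc* in that cluster had 230 WT and 35 *Vsir-/-* UMIs.

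Receptors of the inducing cytokines were not higher by 2-fold in either cluster. Of 4 that passed in gamma delta T cells, *Il18r1*, an IL-18 receptor chain, was lower, with 117 WT and 31 *Vsir-/-* UMIs (log2 ratio -1.25, interval -1.87 to -0.67), and the list median was -0.75. Of 7 in the EM-like CD4+ cluster, none passed 2-fold in either direction. Of 7 inducing cytokines, 1 passed the count filter in gamma delta T cells and 2 in the EM-like CD4+ cluster, and none passed 2-fold. *Tgfb1*, which encodes TGF-β1 and was named after its values were seen, had 56 and 35 UMIs in gamma delta T cells (log2 ratio -0.02) and 511 and 269 UMIs in the EM-like CD4+ cluster (-0.10).

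Genes that act after the IL-17 receptor included negative regulators. In gamma delta T cells, 2 of 4 were at least 2-fold higher and 0 lower. *Tnfaip3*, which encodes the NF-κB inhibitor A20, had 63 and 98 UMIs (log2 ratio 1.30, interval 0.83–1.78), and *Zc3h12a*, an RNase that degrades cytokine mRNA, had 4 and 17 (2.75, interval 1.13–4.78). Of 8 in the EM-like CD4+ cluster, 2 were at least 2-fold higher and 0 lower, *Tnfaip3* with 371 and 605 UMIs (1.53, interval 1.35–1.73) and *Cebpd* with 10 and 41 (2.86, interval 1.84–4.03). The log2 ratios of the target genes *S100a8* and *S100a9*, the calprotectin subunits that neutrophils carry, were below 0 in both clusters. In gamma delta T cells they were -1.53 (interval -2.95 to -0.32) and -1.14 (interval -2.49 to 0.03, which includes 0). In the EM-like CD4+ cluster they were -1.30 (interval -1.72 to -0.90) and -1.40 (interval -1.78 to -1.05). Neutrophil markers, a list that holds both genes, summed to 228 and 124 CPM in gamma delta T cells and to 268 and 120 CPM in the EM-like CD4+ cluster, and both genes made up most of these sums. The other 3 markers, *Csf3r*, *Retnlg*, and *Mmp9*, had 0, 3, and 1 UMIs in WT and 2, 1, and 4 UMIs in *Vsir-/-* gamma delta T cells. In the EM-like CD4+ cluster, *Retnlg* (62 and 13 UMIs) was detected in 11.5% of WT and 4.92% of *Vsir-/-* cells. *Csf3r* (8 and 2 UMIs) was detected in 1.64% and 0.820% there, and *Mmp9* (44 and 34 UMIs) went the other way, with 4.70% and 6.97%. *Lcn2* was higher in the EM-like CD4+ cluster (15 and 25 UMIs, log2 ratio 1.57, interval 0.59–2.59), where tubule markers were higher too. The part of these other cell types was not tested.

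Of the other effectors of type 17 cells, 2 of 5 that passed in the EM-like CD4+ cluster were at least 2-fold higher and 1 lower. *Csf2*, which encodes GM-CSF, had 16 UMIs in 13 WT cells and 38 in 19 *Vsir-/-* cells (log2 ratio 2.08), and *Lta* had 33 and 45 UMIs (1.28, interval 0.60–1.97). *Il21* had 29 UMIs in 4 WT cells and 3 UMIs in 1 *Vsir-/-* cell (-2.44, interval -4.80 to -0.75). In the type 1 list of the same cluster, 1 of 10 genes was at least 2-fold higher, *Ifng* (490 and 701 UMIs, 1.35, interval 1.18–1.52), and 1 lower, *Prf1*, which encodes perforin (250 and 42 UMIs, -1.74, interval -2.25 to -1.27). Over all genes of the cluster, 10.4% were at least 2-fold higher and 5.41% lower, so 1 of 10 is near these shares. The list median was -0.53. NK cell markers in this cluster summed to 1012 CPM in WT and 239 CPM in *Vsir-/-* mice. In gamma delta T cells, 1 other effector and 2 type 1 genes passed the count filter and none passed 2-fold. Of the other receptor chains, none passed the count filter in gamma delta T cells and 1 did in the EM-like CD4+ cluster, where it did not pass 2-fold.

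Over the 29 groups of 1 cluster in 1 library with at least 20 cells, the levels of *Il17a* and *Il17f* correlated most closely among the members (Pearson r = 0.95 on log2(CPM + 1)), followed by *Il17f* with *Il23r* (0.90) and *Il17a* with *Il23r* (0.88). *Il17ra* had correlations from -0.36 to -0.09 with the other members. The groups share libraries, and most hold no UMI of the sparse genes, so that a few groups set these values. Among 13975 other genes, those most like *Il17a* were *Ppp1r14c* (0.88), *Arnt2* (0.85), and *Ly6g5b* (0.85). Those most like *Il23r* were *Ppp1r14c* (0.92), *Ccr10* (0.87), and *C030034L19Rik* (0.86). *Blk*, a Src family kinase of B cells and gamma delta T cells, was most like *Ccr6* (0.89), ahead of *Pxdc1* (0.75) and *Ly6g5b* (0.73). *Arnt2* (0.88), *Il1r1* (0.87), and *D630039A03Rik* (0.84) were most like *Il17re*. *Blk* had 257 CPM in WT and 305 CPM in *Vsir-/-* gamma delta T cells. By Spearman's rho, *Blk* was again first for *Ccr6* (0.85) and *Arnt2* was first for *Il17a* (0.85). *Ppp1r14c* fell to a rho of 0.60 (rank 179) and *Ly6g5b* to 0.30 (rank 3636) for *Il17a*, so these likenesses depend on the measure.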

How the data were processed

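Kidney cells of mice with NTN were measured in 1 WT and 1 *Vsir-/-* library. Per the labels, the submitters' processing notes name Cell Ranger (version 3.1.0), R (version 4.0.3), Seurat (version 3.2.3), and the build mm9. The deposited matrix holds counts of UMIs, whole numbers without normalization, for each gene in each cell that passed the authors' filters, and cluster names are the authors' own. The deposited percent values (the mitochondrial share of each cell) served only for an alternative limit of 5%. Deposited cell coordinates were not used.

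The members and the gene lists were chosen with earlier results of these data known. For each cluster of each library, the UMIs of a gene were added up and divided by all UMIs of the same cells (UMIs per 1000000, CPM). Intervals are exact at the 95% level (Poisson for UMIs, Clopper-Pearson for shares, conditional for ratios) and cover counting error only. A count of 0 was read as allowing 3 counts. Depth was 32799550 UMIs in the WT and 18601189 in the *Vsir-/-* library. With 1 library per genotype, no p-value was computed. For the share of genes past 2-fold, 0.5 UMIs were added on each side. Genes under 20 UMIs in the cluster, summed over both libraries, were left out. Cells were thinned to 1000 UMIs with a fixed seed. Genes were named by rule: the 7 members, up to 4 genes per pathway list that passed 2-fold, and for each of 4 members the 3 genes with the highest Pearson correlation of log2(CPM + 1). Doublets were neither called nor removed here, and whether the authors removed them is not given in the sources used here. Alternatives changed the cells kept, depth, denominator, weighting, low-count filter, centring, and the measure of likeness. An alternative value was counted as moved when it left the counting interval, when a count changed by more than 1.5-fold, or when a correlation changed by more than 0.1. Values of a regulator on the lists are not reported here. The ratio, its interval, and the 2-fold call were tested on simulated independent counts, unlike real UMIs that gather in few cells. The other steps were not simulated. Python 3.11.15, numpy 2.4.6, scipy 1.17.1, pandas 2.3.3, and matplotlib 3.10.9 were used.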

Additional observations from a re-analysis of the deposited data

Results flagged for a closer look

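*Il17re* was singled out because its log2 ratio of *Vsir-/-* over WT mice pointed in opposite directions in the 2 clusters, with both intervals away from 0. It was -1.26 (interval -2.43 to -0.23) in gamma delta T cells and 0.91 (interval 0.19–1.65) in the EM-like CD4+ cluster. The difference between the clusters was not tested, since each genotype has 1 library. Restricted to gamma delta T cells with *Trdc*, the log2 ratio was -1.40, from 23 and 9 UMIs. Among EM-like CD4+ cells with *Cd4* and without *Cd8a* or *Cd8b1* it was 0.59, from 19 and 25 UMIs. A higher *Vsir-/-* count was not particular to the EM-like CD4+ cluster. Proliferating cells held 1 WT and 37 *Vsir-/-* UMIs, M2-like R2 macrophages 1 and 7, and R1 macrophages 0 and 7. Neutrophils went the other way, with 4 and 0. Tubule markers were higher in all these *Vsir-/-* clusters, and their part was not tested.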

How the results depend on the processing

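Of 113 recomputed log2 ratios of the members in gamma delta T cells and the EM-like CD4+ cluster, 101 stayed within the counting interval, 11 left it, and 1 whose interval had excluded 0 turned, *Il17ra* in the EM-like CD4+ cluster after thinning to 1000 UMIs (0.48). The 101 include settings that could hardly change a ratio. Leaving out shared barcodes, leaving out tubule UMIs, and counting UMIs per cell each kept 13 of 13 within the interval. After thinning, 4 of 9 stayed within it, and among cells with *Cd4* and without *Cd8a* or *Cd8b1*, 3 of 7 did. *Ccr6* in gamma delta T cells, whose interval included 0, also changed sign, to -1.28 after thinning and -0.10 without the highest cell of each library. Leaving out the tubule UMIs changes only the totals and says nothing about tubule transcripts as a cause. The log2 ratio of *Il17a* in gamma delta T cells moved to 1.42 among cells with *Trdc*. In the EM-like CD4+ cluster it moved to 5.09 without the highest cell of each library, 4.31 after thinning, 4.30 as a mean over cells, and 2.26 among cells with *Cd4* and without *Cd8a* or *Cd8b1*. The limits on *Trdc* and *Cd4* were chosen after seeing the data. The part of *Il17a* UMIs in gamma delta T cells moved in WT mice from 57.7% to 83.7% without the highest cell and to 69.2% after thinning, and in *Vsir-/-* mice from 35.7% to 41.1% without the highest cell, 31.7% with a mitochondrial share of at most 5%, and 30.0% after thinning. For the EM-like CD4+ cluster it moved in WT mice from 38.5% to 10.9% and 26.9%, and in *Vsir-/-* mice from 55.6% to 48.9% and 63.6%, without the highest cell and after thinning. The share of *Vsir-/-* gamma delta T cells with *Il17a* moved from 75.0% to 42.9% after thinning. The number of genes at least 2-fold higher or lower in gamma delta T cells was 202 and 223 with at least 20 UMIs, 60 and 52 with at least 50, and 2803 and 1614 with at least 1. In the EM-like CD4+ cluster it was 1012 and 528, 478 and 285, and 4341 and 1606. Fewer or more genes enter under these filters. Where thinning left 0 UMIs on one side (*Il17f*, *Il23r*, and *Il17re* in gamma delta T cells and *Il22* in the EM-like CD4+ cluster), no ratio was given.

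No paired analysis was possible because each genotype has 1 library. Genotype, sort, library, and mice cannot be told apart. The gamma delta T results rest on 46 and 28 cells, and the members other than *Il17a* on 38 or fewer UMIs there per library. The cause of the changes above was not tested.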
